A study of Homo sapiens with 7 samples.

Results

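The desmosome is the junction by which stratified epithelial cells hold on to each other, and 10 of its genes were followed here through the silencing of the squamous transcription factors TP63 and SOX2 and of the long noncoding RNA CCAT1. The group was set by name: the desmosomal cadherins DSG1, DSG2, DSG3, DSC2 and DSC3, the plakin DSP, the armadillo proteins PKP1, PKP3 and JUP, and the desmosome-associated membrane protein PERP. They are 10 of the 56234 genes to which a transcript of the deposited tables could be assigned, and all 10 had at least 10 estimated counts in 1 or more libraries. The values are estimated counts and TPM (a level corrected for transcript length and library size), each summed over the transcripts of a gene.

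The series holds 7 RNA-seq libraries from 2 established esophageal squamous carcinoma cell lines, TE5 and KYSE140. TE5 was sequenced with a non-targeting scramble short hairpin RNA (shRNA) and with an shRNA against TP63, SOX2 or CCAT1, and KYSE140 with scramble or an shRNA against TP63 or SOX2. The shRNAs were delivered by pLKO.1 lentivirus, so the scramble cells carry a vector as well. Each condition is 1 library from 1 hairpin in each line, so a hairpin's other targets and the loss of its intended target cannot be told apart, and a pair of libraries allows no test between conditions. The 95% intervals given for such pairs cover counting error only. The sample descriptions also place the TE5 scramble library on another flow cell than the TE5 knockdown libraries and the KYSE140 scramble library on another lane (lane 2) than the KYSE140 knockdown libraries (lane 3), so that lane and knockdown cannot be told apart in any comparison with scramble. In bulk libraries, fewer cells of a kind and less RNA per cell cannot be told apart either.

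Desmosomal cadherins, the desmogleins and desmocollins, meet their counterparts from the neighboring cell in the space between the membranes. Inside the cell their tails bind plakoglobin (JUP) and the plakophilins, and desmoplakin (DSP) ties that plaque to keratin filaments. In stratified squamous epithelium the cadherins are layered, with DSG3 and DSC3 typical of the basal layers, DSG1 of the upper layers, and DSG2 and DSC2 shared with simple epithelia.

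The cadherin members lie side by side on chromosome 18, in the order DSC3, DSC2, DSC1, DSG1, DSG4, DSG3 and DSG2, at chr18:28569331-29128971 (GRCh37). DSP and PERP lie on chromosome 6, PKP1 on chromosome 1, PKP3 on chromosome 11 and JUP on chromosome 17. Several members have forms that differ by a short exon, and those exons are shown because the deposited values separate the forms. Each was read from GRCh37, 5′ to 3′ on the strand of the gene, and covers the coding bases of the exon, with a stop codon in capitals. The first is coding sequence of exon 16 of DSC2 (minus strand, chr18:28648275-28648310), the second of exon 16 of DSC3 (minus strand, chr18:28574436-28574462) and the third of exon 7 of PKP1 (plus strand, chr1:201288944-201289006).
DSC2 b-form exon: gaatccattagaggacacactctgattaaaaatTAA
DSC3 b-form exon: gaatccattagaggacacactggtTAA
PKP1 b-form exon: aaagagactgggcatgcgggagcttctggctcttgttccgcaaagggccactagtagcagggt
The DSC2 and DSC3 exons open with the same letters and both end the reading frame, which gives the b-forms a shorter cytoplasmic tail than the a-forms. The PKP1 exon holds no stop at its end and adds a stretch to the protein.

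Promoter windows, 250 bases before to 50 after the start of a gene, were found in RefSeq (GRCh38.p14) for 9 of the 10 members, PKP3 being the one without, in 11 windows. DSG3 and DSG1 are shown because they are sister genes whose levels differed widely and which both moved in the KYSE140 shSOX2 library below. Capitals mark the SOX word ACAAAG on either strand (CTTTGT on the opposite strand).
DSG3 promoter (plus strand, chr18:31447491-31447790): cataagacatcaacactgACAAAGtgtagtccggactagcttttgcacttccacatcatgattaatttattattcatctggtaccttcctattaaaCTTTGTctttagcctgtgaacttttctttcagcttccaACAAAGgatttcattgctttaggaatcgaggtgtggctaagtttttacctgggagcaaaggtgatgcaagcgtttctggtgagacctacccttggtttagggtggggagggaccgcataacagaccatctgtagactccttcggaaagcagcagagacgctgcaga
DSG1 promoter (plus strand, chr18:31317910-31318209): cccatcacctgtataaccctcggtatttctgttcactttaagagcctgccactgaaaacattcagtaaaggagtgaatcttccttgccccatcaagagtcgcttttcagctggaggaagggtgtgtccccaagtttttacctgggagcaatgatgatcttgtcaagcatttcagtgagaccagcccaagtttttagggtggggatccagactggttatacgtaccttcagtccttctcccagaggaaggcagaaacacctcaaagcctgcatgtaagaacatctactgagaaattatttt
The DSG3 window holds 3 ACAAAG words, at -232, -154 and -116 bases from the start. At least 1 such word is present in 16.07% of 35116 promoter windows of the same length and 3 or more in 0.196%. Of the other members' windows, 1 of DSC2 holds 1 word, at -8, and the rest hold none. The related SOX word ACAATG, present in 10.78% of windows, was in no member's window. The AP-1 word TGANTCA (7.71% of windows) was found in PERP alone, at -101, and the p53-family letters CATGNNNNNNCATG (0.37%) and ACATGT (4.19%) were in none. These matches are descriptions of letters within 300-base windows. DSG1 and DSG3 also share the unbroken word AAGTTTTTACCTGGGAGCAA, which begins at -120 in DSG1 and at -78 in DSG3, the longest word shared by any pair of the members' windows.

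The libraries held between 68532611 and 98036494 estimated counts. TP63 fell to 33.0 TPM from 126.6 TPM in TE5 upon shTP63 (log2 fold change of scaled counts -1.98) and to 48.7 TPM from 193 TPM in KYSE140 (-1.94). SOX2 fell by 1.34 on the log2 scale of scaled counts upon shSOX2 in TE5. In KYSE140 its log2 fold change was -0.38 in scaled counts (29149 to 22471) and -0.55 in TPM (190.5 to 130.4), so every KYSE140 shSOX2 value below comes from a library that kept 68.4% of its SOX2 TPM. CCAT1 has no transcript in the annotation used here and was not analysed, which leaves the CCAT1 knockdown without a check. The 7 squamous markers listed for the label were all detected, yet KRT14, the basal keratin, lay between 0.202 and 0.546 TPM in the TE5 libraries against 304 to 1689 TPM in KYSE140, and the 5 glandular markers, KRT8 and KRT18 among them, summed to 993 to 1922 TPM in TE5 and to 827 to 1357 TPM in KYSE140, ranges that overlap. Of those 5, CDX2 lay between 5.70 and 12.13 TPM in TE5 and at 0 in KYSE140. The summed level of 6 fibroblast markers was 13.3 to 27.1 TPM in TE5 and 33.3 to 44.9 TPM in KYSE140. For the endothelial markers it was 2.37 to 9.28 and 0.69 to 0.92 TPM. The 4 leukocyte markers summed to 48.9 to 116 TPM in TE5 and to 4.03 to 15.6 TPM in KYSE140. Their part in the results below was not tested.

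JUP, plakoglobin, which serves both desmosomes and adherens junctions, had the highest TPM of the 10 genes in 6 of the 7 libraries, PERP being higher in KYSE140 shTP63. It lay at 618 TPM in TE5 scramble, 788 in shTP63, 595 in shSOX2 and 414 in shCCAT1, and at 758, 594 and 986 TPM in KYSE140 scramble, shTP63 and shSOX2. At the other end, DSG1, the desmoglein of the upper epithelial layers, lay at 1.15, 1.77, 0.971 and 2.03 TPM in TE5 scramble, shTP63, shSOX2 and shCCAT1 and at 0.446, 0.483 and 2.54 TPM in KYSE140. DSG1 was the lowest of the 10 genes in every library, and it rests on 103 to 740 counts per library.

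DSG2, the desmoglein of simple and stratified epithelia, was the main desmoglein in 6 of the 7 libraries. It was at 171, 144, 196 and 141 TPM in TE5 scramble, shTP63, shSOX2 and shCCAT1 and at 87.0, 71.0 and 85.5 TPM in KYSE140. The libraries of the 2 lines do not overlap for DSG2, with TE5 the higher. DSG3, the basal desmoglein and the pemphigus vulgaris antigen, was at 54.2, 48.7, 58.5 and 56.4 TPM in TE5 and at 48.8, 43.2 and 101.6 TPM in KYSE140. It lay between 43.2 and 58.5 TPM in 6 libraries and stood apart in KYSE140 shSOX2.

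DSC2, the widely expressed desmocollin, was at 9.78, 21.8, 15.2 and 10.6 TPM in TE5 scramble, shTP63, shSOX2 and shCCAT1, and at 24.2, 42.8 and 52.4 TPM in KYSE140. The scramble library was the lowest of its line both times. DSC3, the basal desmocollin, was at 24.4, 14.4, 31.6 and 19.6 TPM in TE5 and at 124, 71.2 and 276 TPM in KYSE140. The shTP63 library was the lowest of its line and the shSOX2 library the highest, in TE5 and in KYSE140 alike.

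DSP, the link to keratin, was at 61.9, 56.2, 46.3 and 45.7 TPM in TE5 scramble, shTP63, shSOX2 and shCCAT1 and at 200.5, 174 and 293 TPM in KYSE140. PKP1, the plakophilin of stratified epithelia, was at 74.0, 51.7, 64.4 and 52.1 TPM in TE5 and at 598, 426 and 579 TPM in KYSE140, where it made up 82.6% to 87.1% of the TPM of PKP1, PKP2 and PKP3. For both genes the lines did not overlap, with KYSE140 the higher. PKP3, a plakophilin found in most epithelia, was at 155, 126, 121 and 114 TPM in TE5 and at 82.3, 70.3 and 116 TPM in KYSE140.

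PERP, a tetraspan membrane protein of the desmosome known as a target of p53-family factors, was at 207, 224, 201 and 182 TPM in TE5 scramble, shTP63, shSOX2 and shCCAT1 and at 574, 636 and 679 TPM in KYSE140. Its values lay close together within each line and did not overlap between the lines.

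**Figure D1:**
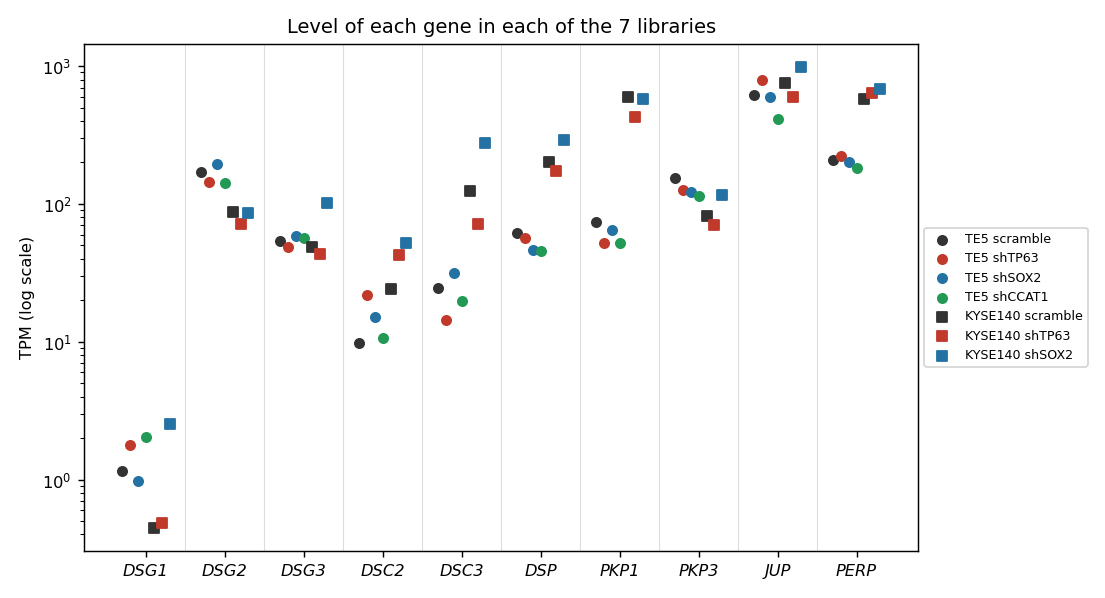
TPM on a log scale for the 10 genes in each of the 7 libraries, with circles for TE5, squares for KYSE140 and color for the shRNA. Each point is 1 library. JUP is the highest point of 6 libraries, DSG1 stays between 0.446 and 2.54 TPM, and PKP1, DSC3, DSC2, DSP and PERP sit higher in all KYSE140 libraries than in all TE5 libraries.

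Between the scramble libraries, 5 of the 10 genes were past a log2 difference of 1 in favor of KYSE140, against 22.2% of 22789 genes. PKP1 was higher by 3.14 on the log2 scale (8.83-fold), DSC3 by 2.47, DSP by 1.95, PERP by 1.65 and DSC2 by 1.47. None was past -1 (27.2% of genes were), and PKP3 came closest at -0.998. The difference was 0.02 for DSG3, with a counting interval from -0.01 to 0.06, and 0.49 for JUP, -0.80 for DSG2 and -0.38 for DSG1. PKP2, the plakophilin of simple epithelia and heart, is not among the 10 and was looked at after its values were seen. It ran the other way, at 66.9 to 101.7 TPM in TE5 and 5.42 to 8.09 TPM in KYSE140. The 2 lines with 1 scramble library each give no test of a difference between lines. For the members described as not overlapping between the lines, the share of all genes that do likewise was not counted. The libraries of a line carry different shRNAs and are not replicates of it.

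Upon TP63 silencing, DSC3, PKP1, DSG2, DSG3, DSP and PKP3 had lower values and DSC2 and the sparsely counted DSG1 higher values in both lines. In scaled counts all were within 2-fold of scramble, whereas in TPM DSC2 went from 9.78 to 21.8 in TE5. In TE5, 0 of the 10 genes were past a log2 fold change of -1 or 1, where 5.62% and 14.8% of 24405 genes were, and in KYSE140 0 were past either, where 4.28% and 9.01% of 21852 genes were. Of the genes that reached 1000 counts in the pair, as the members other than DSG1 did, 4.07% and 2.49% were past -1 and 1 in TE5 and 1.03% and 0.428% in KYSE140. The median of the 10 genes was -0.30 in TE5 beside 0.06 over all genes and -0.25 in KYSE140 beside 0.05. Among the genes that reached 1000 counts the medians were -0.12 and -0.01. In the TE5 pair markers of other cell types moved too. Of the fibroblast markers 3 of the 4 measured were past 1 (median 2.12), among them COL3A1 at 0.244 and 1.73 TPM in scramble and shTP63. COL1A1, at 14.8 and 24.0 TPM, was not past 1 (2310.6 and 4041.2 scaled counts). Of the 6 fibroblast markers listed, 4 lay under 1 TPM in every library. Of the 2 endothelial markers measured 1 was past 1 (median 1.23), namely CDH5 at 1.70 and 8.36 TPM. The part of these markers in the members' values was not tested.

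DSC3 came to -0.92 in TE5 (95% interval -0.97 to -0.87) and -0.73 in KYSE140 (-0.76 to -0.71). PKP1 came to -0.74 and -0.58, and DSG2 to -0.40 and -0.33. DSC2 went the other way, at 0.998 in TE5 (0.93 to 1.06), just under the threshold, and 0.79 in KYSE140 (0.75 to 0.84). Of the remaining members, DSG3 was at -0.31 and -0.20, DSP at -0.30 and -0.24 and PKP3 at -0.48 and -0.26 in TE5 and KYSE140. JUP was at 0.23 and -0.38, PERP at -0.04 and 0.12 (0.10 in TE5 without TMM scaling and 0.11 with TPM), and the sparsely counted DSG1 at 0.77 (0.52 to 1.04) and 0.09 (-0.28 to 0.46).

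The 6 scramble, shTP63 and shSOX2 libraries of both lines were then fitted together, with the line as a block, by the quasi-likelihood test of edgeR. No member passed a Benjamini-Hochberg adjusted p of 0.1 for shTP63, and neither did any of the 30171 features tested (0% lower, 0% higher). TP63 itself had an adjusted p of 0.287 in this edgeR fit, with a log2 fold change of -1.95 (SE 0.12), so the silenced gene was not called either. The fit had 2 residual degrees of freedom. At an unadjusted p under 0.05, 3 members were lower, beside 6.62% of features, and 1 was higher, beside 4.44%. PKP1 had -0.65 (SE 0.13, adjusted p = 0.303), DSC3 -0.82 (SE 0.23, adjusted p = 0.369), DSG2 -0.35 (SE 0.12, adjusted p = 0.409) and DSC2 0.92 (SE 0.23, adjusted p = 0.347). DESeq2 on the same libraries called these 4 genes, the same 3 lower beside 9.84% of 16716 features and DSC2 higher beside 3.53%. Its adjusted p was 0.000151 for PKP1, 0.0140 for DSC2, 0.0149 for DSC3 and 0.0164 for DSG2. The other 6 members had adjusted p between 0.642 and 0.982 by edgeR. The members under an unadjusted p of 0.05 depended on single libraries: 1 in place of 3 was lower without KYSE140 shTP63 or without TE5 scramble, 2 were lower without any 1 of the other 4 libraries, and 0 in place of 1 were higher without TE5 shTP63, where DSC2 came to 0.61, or without KYSE140 scramble, where it came to 0.82.

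With DSC3 and DSC2 on opposite sides of scramble, their ratio was lower upon shTP63 in both lines, and in TE5 DSC2 came to exceed DSC3. In TE5 scramble the DSC3 to DSC2 ratio of TPM was 2.49, and it was 0.661 upon shTP63, so that DSC2 came to 60.0% of desmocollin TPM from 28.6%. In KYSE140 the ratio was 5.13 in scramble and 1.66 upon shTP63. The log2 change of the ratio was -1.91 in TE5 (95% interval -1.99 to -1.83) and -1.62 in KYSE140 (-1.67 to -1.57). These intervals come from gene counts but are set around a ratio of TPM, so they do not cover the choice of scale. DSC3 TPM includes DSC3-203, a 907-base transcript with 17.4% of it in KYSE140 scramble and 10.8% upon shTP63. By counts those shares were 2.23% and 1.3%. In scaled counts KYSE140 shTP63 had DSC3 at -0.73 and DSC2 at 0.79. The ratio was 2.08 upon shSOX2 and 1.85 upon shCCAT1 in TE5 and 5.27 upon shSOX2 in KYSE140, changes of -0.26, -0.43 and 0.04. The sign of the last turns with the scale, since in scaled counts DSC3 rose by 1.26 and DSC2 by 1.29. This ratio was chosen after the values were known, and a ratio within a library does not depend on the scaling between libraries.

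**Figure D2:**
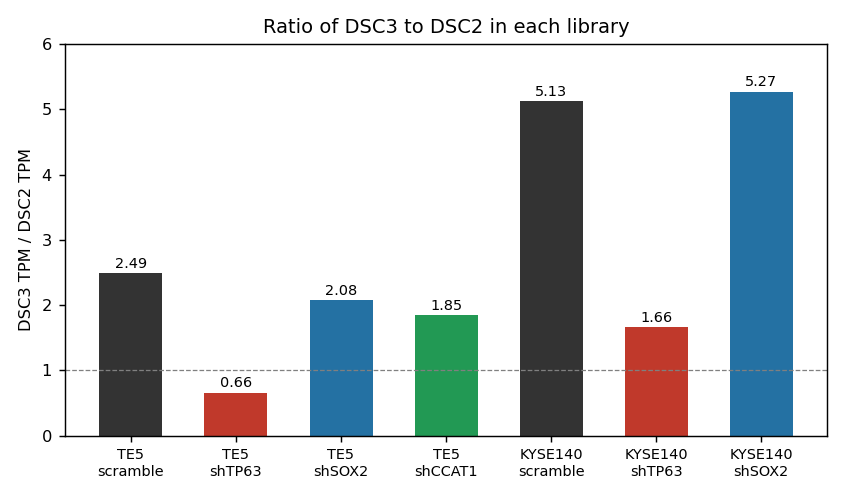
Ratio of DSC3 TPM to DSC2 TPM in each of the 7 libraries, 1 bar per library, with a dashed line at equal levels. The shTP63 library has the lowest ratio of its line, 0.66 in TE5 and 1.66 in KYSE140, and only TE5 shTP63 lies under 1.

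Upon SOX2 silencing in KYSE140, 4 of the 10 genes increased past a log2 fold change of 1, beside 7.04% of 20747 genes, and none decreased past -1 (6.26%). Of the 9284 genes that reached 1000 counts, which leaves out DSG1, 0.894% were past 1 and 1.36% past -1. All 10 values were positive with TMM scaling, with a median of 0.66 beside 0.06 over all genes, but with TPM 2 of them turned negative, PKP1 at -0.05 and DSG2 at -0.03. All 4 that increased are cadherins: DSG1 rose by 2.67 (95% interval 2.38 to 2.995), DSC2 by 1.29 (1.24 to 1.33), DSC3 by 1.26 (1.24 to 1.27) and DSG3 by 1.23 (1.20 to 1.26) on the log2 scale. DSG2, the fifth cadherin, was at 0.14. The plaque genes DSP, PKP3, JUP and PKP1 were at 0.72, 0.60, 0.54 and 0.11, and PERP was at 0.41.

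In TE5, where the loss of SOX2 was larger, 0 of the 10 genes were past -1 or 1, beside 4.95% and 6.31% of 22726 genes, or 1.08% and 0.475% of those that reached 1000 counts. DSC2 was at 0.65, DSC3 at 0.39, DSG2 at 0.22 and DSG3 at 0.13, while DSP and PKP3 were both at -0.39, PKP1 and DSG1 were at -0.21 and -0.20, and JUP and PERP were within 0.03 of scramble at -0.03 and -0.02. The median was -0.03 beside -0.01 over all genes. Of the fibroblast markers 3 of the 4 measured were past 1 in this pair as well (median 1.55), among them COL3A1 at 1.32 TPM upon shSOX2. COL1A1, the highest of them in TPM, was not past 1. It lay at 14.8 TPM in scramble and 12.8 TPM upon shSOX2 (2310.6 and 2553.2 scaled counts). Of the 2 endothelial markers measured, CDH5 was past 1, at 3.88 TPM upon shSOX2, and the other was below 0 (median 0.47). The part of these markers in the members' values was not tested. Whether the lines differ was not tested, since each has 1 library.

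In the edgeR fit of both lines 0 members were called upon SOX2 silencing, beside 0.00331% of features called lower and 0% higher. At an unadjusted p under 0.05, 2 members were higher, beside 3.24% of features, and 0 were lower, beside 4.21%. DSC2 had 0.96 (SE 0.23, adjusted p = 0.541) and DSC3 0.81 (SE 0.23, adjusted p = 0.592). DSG3 had 0.69 (SE 0.30, adjusted p = 0.691), and DSG1 had 1.57 with an SE of 0.96 (adjusted p = 0.766). DESeq2 called DSC2 and DSC3 higher (adjusted p of 0.0132 and 0.0541), beside 1.53% of 20519 features, and 0 members lower, beside 2.79%. Under an unadjusted p of 0.05 by edgeR, the count of higher members ran from 0 without KYSE140 scramble to 6 without TE5 shSOX2, and was 1 without KYSE140 shSOX2. Without KYSE140 shSOX2 the fitted value of DSC2 was 0.60, that of DSC3 0.43, that of DSG3 0.16 and that of DSG1 -0.38. The shTP63 and shSOX2 comparisons share the scramble library of each line.

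Within the lane shared by the knockdown libraries, shTP63 could be set against shSOX2 with no scramble library, an alternative added after the data were seen. In KYSE140, 3 of the 10 genes were past -1, beside 6.70% of 22051 genes: DSG1 at -2.59, DSC3 at -1.99 and DSG3 at -1.43. All 10 values were negative there, with a median of -0.89. In TE5, 1 gene was past -1, beside 6.33% of 24561 genes, namely DSC3 at -1.31. None was past 1 in either line, beside 10.5% and 14.3% of genes. Of the genes that reached 1000 counts, 2.70% were past -1 in KYSE140 and 3.84% in TE5. DSC3 was therefore lower with shTP63 than with shSOX2 in both lines when lane was shared.

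**Figure D3:**
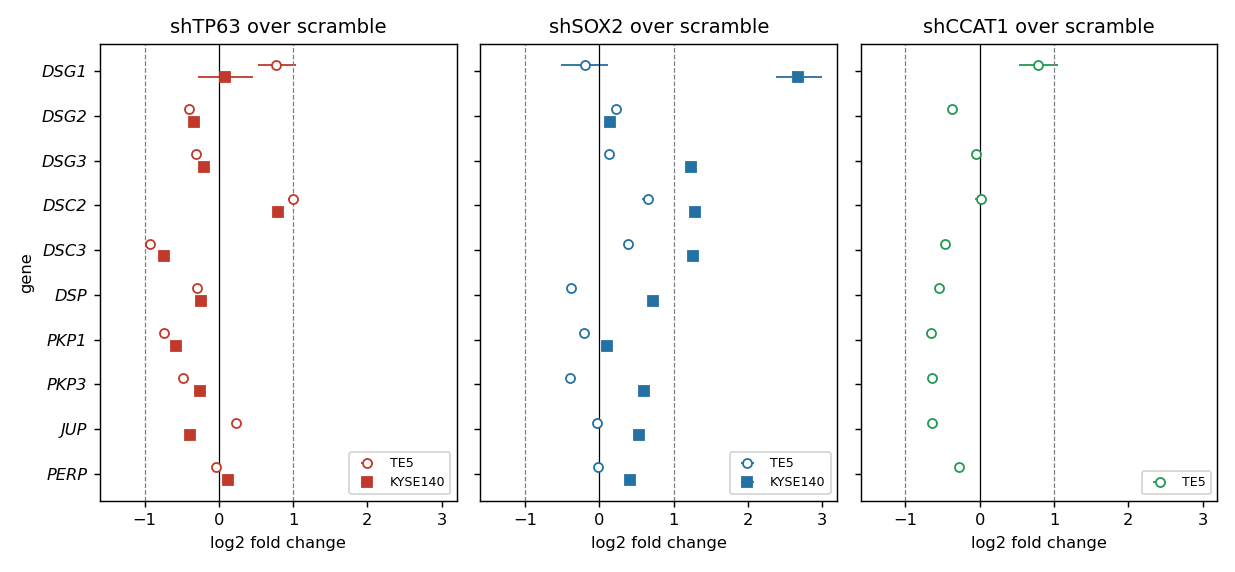
Log2 fold change over the scramble library of the same line for the 10 genes, 1 panel per shRNA, open circles for TE5 and filled squares for KYSE140, with bars for the 95% counting interval and dashed lines at -1 and 1. In the shTP63 panel DSC3, PKP1 and DSG2 lie left of 0 and DSC2 right of 0 in both lines, and in the shSOX2 panel 4 KYSE140 cadherins lie past 1.

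Upon CCAT1 silencing in TE5, 0 of the 10 genes were past -1 or 1, beside 6.05% and 11.9% of 24112 genes, or 0.541% and 0.226% of those that reached 1000 counts. The plaque genes had the lowest values, with PKP1 at -0.65, PKP3 at -0.65, JUP at -0.65 and DSP at -0.55. DSC3 was at -0.47, DSG2 at -0.37 and PERP at -0.28. DSG3 and DSC2 were at -0.04 and 0.02, signs that turn with the scaling, and DSG1 was at 0.78 (95% interval 0.53 to 1.05). The median of the 10 genes was -0.42, beside 0.02 over all genes and -0.08 among genes that reached 1000 counts. A shift of this size was not particular to the members among the junction lists described below. The 9 adherens junction genes had a median of -0.41 and the 7 plakins and keratins -0.55, while the 7 tight junction genes were at 0.03. The pair has no replicate in the other line and no test.

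The 4 genes past the threshold in KYSE140 shSOX2 all come from the chromosome 18 cluster, where the desmocollins read on the minus strand and the desmogleins on the plus strand. Of the 8 genes listed for this region, 6 had enough counts in that pair. DSC1, a desmocollin of the upper layers that is not among the 10 genes, rose there by 1.26, on 127 counts in scramble and 341 in shSOX2. Thus 5 of the 6 measured genes were past 1, and DSG2, the last desmoglein of the row, was at 0.14. DSC1 was also past the threshold upon shSOX2 in TE5, at 1.17 (13.6 and 31.9 counts), and upon shTP63 in TE5, at 1.04 (38.8 counts), with at most 0.144 TPM in any TE5 library. DSG4 and TTR fell under the minimum of 10 counts. The share of DSG3 in desmoglein TPM came to 53.6% in KYSE140 shSOX2 from 35.8% in scramble, the 1 library of the 7 in which DSG3 exceeded DSG2.

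**Figure D4:**
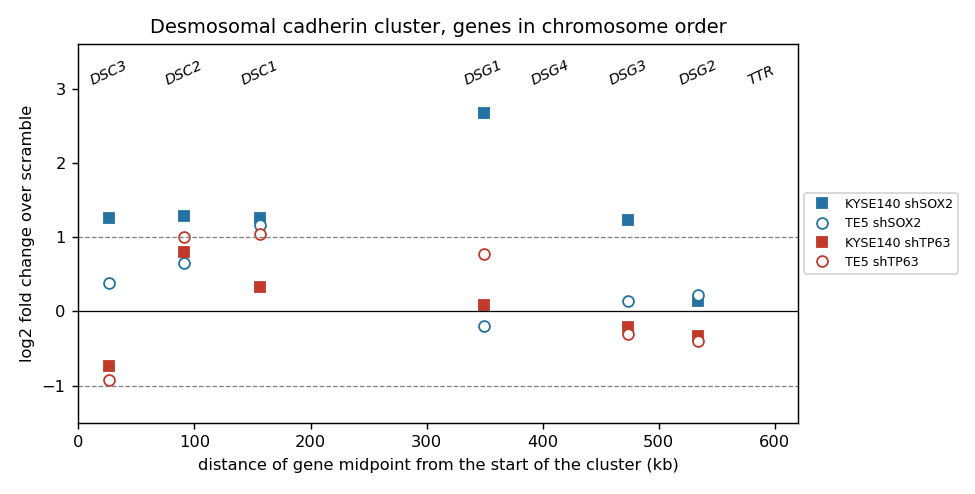
Log2 fold change over scramble of the genes in the chromosome 18 cadherin cluster against the distance of each gene's midpoint from the start of the cluster in kb, squares for KYSE140, open circles for TE5, blue for shSOX2 and red for shTP63. DSG4 and TTR carry no points because their counts were under the minimum. In KYSE140 shSOX2 the measured genes other than DSG2 lie above 1, while upon shTP63 the neighbors DSC3 and DSC2 lie on opposite sides of 0.

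The deposited transcripts separate forms of 4 members, with shares that rest on how the authors' pseudoaligner split reads common to the forms. The b-form of DSC2, which carries the exon shown above, made up 32.7% to 39.2% of its pair of forms in TE5 and 44.3% to 47.3% in KYSE140, so the lines did not overlap. The DSC2 increase in KYSE140 shSOX2 was 1.34 for the a-form and 1.22 for the b-form. The b-form of DSC3 made up 28.8% in TE5 scramble, 40.9% in shTP63, 30.9% in shSOX2 and 23.5% in shCCAT1, and 27.9%, 30.0% and 22.4% in KYSE140 scramble, shTP63 and shSOX2. Upon shTP63 in TE5 the a-form fell by 1.19 on the log2 scale and the b-form was at -0.42, and in KYSE140 the values were -0.76 and -0.61. In both lines the shTP63 library had the highest DSC3 b share.

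DSP II, which lacks part of the central rod of DSP I, made up 49.2% to 54.0% of DSP in TE5 and 27.8% to 30.2% in KYSE140. The lines differed by more than the libraries within each line did. The PKP1 b-form was at 0 counts in 6 libraries, where 3 counts would have been 0.0022% to 0.0182% of the a-form, and at 63.6 counts (0.095% of TPM) in KYSE140 shSOX2. PKP1 was therefore measured almost wholly as the form without the exon shown above.

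**Figure D5:**
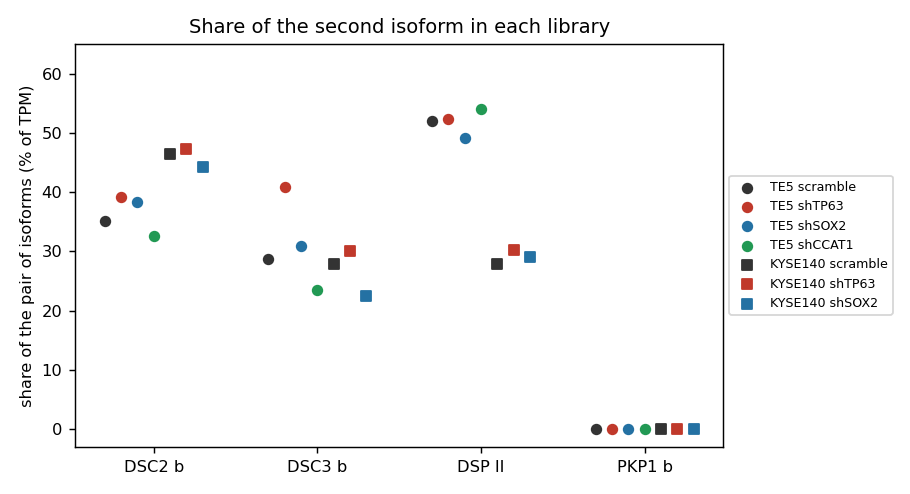
Share of the second form among each gene's pair of forms, in percent of TPM, for DSC2 b, DSC3 b, DSP II and PKP1 b in each of the 7 libraries, circles for TE5 and squares for KYSE140. DSP II lies at 49.2% to 54.0% in TE5 and under 30.2% or at it in KYSE140, and DSC3 b is highest in TE5 shTP63 at 40.9%.

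Some values depend on transcripts for which the annotation defines no coding sequence. In TE5, 44.6% to 65.1% of DSG1 TPM lay in such a transcript, DSG1-202, against 0% in KYSE140. By counts its share of DSG1 in TE5 was 21.7% to 39.2%. Whether that part of the TE5 level of DSG1 is coding RNA is not given. In TPM, transcripts with no defined coding sequence, retained introns included, made up 7.51% to 17.1% of PKP3 in TE5 and 25.7% to 28.9% in KYSE140. Their TPM share was 2.24% to 10.0% for PKP1 and at most 1.95% for JUP. By counts, on which the fold changes rest, the coding transcript PKP3-201 alone held 96.45% to 97.1% of PKP3 in TE5. In KYSE140 it held 93.4% to 94.7%. The coding PKP1-203 held at least 98.96% of PKP1 counts in every library. Antisense genes overlap exons of DSG1, DSG2 and DSP (DSG1-AS1, DSG2-AS1 and DSP-AS1), and RP11-408H20.1 overlaps exons of DSC2 on the same strand. Whether the counting used strand is not given in the sources used here, so reads of those overlaps are uncertain. Words of 31 bases shared with any other gene made up 6.10% of the words of DSC2, 5.14% of DSG3, 5.08% of DSG2, 3.56% of DSC3, 3.50% of DSG1, 2.30% of PERP, 0.05% of DSP and 0% of PKP1, PKP3 and JUP, in the annotation used here. Of 42 member transcripts, 31 had the same length in that annotation as in the deposited values. DSC2-201 had 4826 bases in the deposited values and 12377 in the annotation, and DSG1-201 had 5045 and 7191. These shared words and exon overlaps, those of DSC2 above all, may therefore lie outside the transcripts that were counted.

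The wider junction lists put these values in context. The shares of all genes past -1 and 1 were 5.62% and 14.8% in TE5 shTP63 and 4.28% and 9.01% in KYSE140 shTP63. They were 4.95% and 6.31% in TE5 shSOX2, 6.26% and 7.04% in KYSE140 shSOX2 and 6.05% and 11.9% in TE5 shCCAT1. Among 7 plakins and keratins, which anchor in or near the desmosomal plaque, 2 were past -1 upon shTP63 in KYSE140, among them KRT13 at -2.10. Upon shTP63 and shSOX2 in TE5, KRT6A, a keratin of activated keratinocytes, was at -2.65 and -2.88 and was 1 of 2 past -1 each time. In KYSE140 shSOX2 1 of the 7 was past 1 and all 7 were positive, with a median of 0.605 beside 0.66 for the members. The medians of the adherens and tight junction genes there were 0.26 and -0.06. In TE5 shCCAT1 3 of the 7 plakins and keratins were past -1 and all 7 were negative. Of 9 adherens junction genes, 2 were past -1 upon shTP63 in TE5, VCL (vinculin) at -1.30 and NECTIN1 at -1.05, and 0 were past either threshold in the other 4 comparisons with scramble. Of 7 tight junction genes 1 was past a threshold in the 5 comparisons, F11R, a junctional adhesion molecule, at -1.06 in KYSE140 shSOX2, and CLDN4 reached 0.96 in TE5 shTP63. Of 4 relatives of PERP, EMP3 was past 1 in TE5 shTP63, at 1.15, and EMP1 reached 0.76 in TE5 shSOX2. None of 7 desmosome regulators was past a threshold, the most distant being PRKCA (protein kinase C alpha) at -0.67 and EGFR at 0.59, both in KYSE140 shSOX2.

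The members did not move as one across the 7 libraries. With log2 values centred within each line, the correlation of each member with the mean of the other 9 ran from 0.41 for DSC2 to 0.93 for DSG3, with DSP at 0.91 and PKP3 at 0.86. Over 12148 genes that had 100 counts or more throughout, the profiles most like the mean of the 10 members were those of SP6 (Pearson r = 0.997), CYP27C1 (0.996), PHLDA3 (0.992), C1R (0.988) and SRP68 (0.981). The points share their libraries and their lines, and 1 of them, KYSE140 shSOX2, lies far from the others. In that library SP6 was at 1.13, CYP27C1 at 1.26 and C1R at 1.13 over scramble, and SRP68, whose profile has the same shape, only at 0.19.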

How the data were processed

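RNA from TE5 and KYSE140 cells was sequenced as 100-base paired-end reads. Per the study's methods, the authors quantified the reads with kallisto against Ensembl 82 transcripts of hg19, and deposited per library estimated counts and TPM for 196354 transcripts; no version or strand setting is given in the sources used here. Here 182863 transcripts, holding 93.58% of the estimated counts, were assigned to 56234 genes through GENCODE 44 (GRCh37) and summed; 13491 were not assigned and entered the fit as single features. CCAT1 was not analysed here.

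Pairs were compared as log2((knockdown + 1)/(scramble + 1)) of TMM-scaled counts where 1 library of the pair reached 10 counts, with exact binomial 95% intervals (a normal approximation for ratios of genes), which cover counting error only, as reads are not independent molecules. Rounded counts of 6 libraries were tested with edgeR 4.0.16 (glmQLFit, line as block, R 4.3.3), with Benjamini-Hochberg adjustment, and with DESeq2 1.42.0 as the alternative. The scripts were tested on simulated data with a smaller spread than the common dispersion of 0.141 fitted here. That test does not show which changes the fit of these libraries could call. Python 3.11.15 drew the figures. Libraries of 68532611 to 98036494 counts make counting error small for all members but DSG1. No source says that libraries came from separate cultures, so p-values measure the spread between these libraries.

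The 10 members and all gene lists were chosen with earlier results of these data known. Named genes were the members, the silenced genes, from each list those past the fold in both lines upon the same shRNA or else the 2 with the largest log2 fold change in a pair (at least 100 counts), and the 5 genes most correlated with the members' mean. Alternatives were other scalings, filters, pseudocounts and thresholds, protein-coding transcripts alone, and each library left out.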

Additional observations from a re-analysis of the deposited data

Results flagged for a closer look

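Listed here are the members whose log2 fold changes upon the same silencing had opposite signs in the 2 lines with both counting intervals off 0, and none of these differences was tested, since each line has 1 library per condition. Upon TP63 silencing the log2 fold change of JUP was 0.23 in TE5 and -0.38 in KYSE140, and that of PERP was -0.04 and 0.12. The TE5 sign of PERP rests on the scaling, since it was 0.10 without TMM and 0.11 with TPM. Upon SOX2 silencing DSP was at -0.39 in TE5 and 0.72 in KYSE140, PKP3 at -0.39 and 0.60, and PKP1 at -0.21 and 0.11. JUP was at -0.03 and 0.54 and PERP at -0.02 and 0.41. The KYSE140 sign of PKP1 rests on the scaling too, at -0.05 with TPM. DSG1, at -0.20 in TE5 and 2.67 in KYSE140 upon SOX2 silencing, had a TE5 interval that spans 0 (-0.52 to 0.12).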

How the results depend on the processing

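Of the members' counts and calls under the alternative settings, including those chosen after seeing the data, 110 kept their value or side of the threshold, 12 moved, 2 gained calls and none reversed. With a log2 threshold of 0.58 in place of 1, TE5 shTP63 had 2 members lower and 2 higher (14.4% and 25.3% of genes), KYSE140 shTP63 1 and 1 (10.1% and 16.7%), TE5 shSOX2 1 higher (13.3%), KYSE140 shSOX2 6 in place of 4 higher (14.5%) and TE5 shCCAT1 3 lower and 1 higher (12.3% and 20.0%). DSC2 in TE5 shTP63, just under 1, made 1 higher member without scaling (1.14) and with TPM (1.08), and with protein-coding transcripts alone the 1 higher member was DSG1 (1.13). Leaving TMM out moved the median of all genes by 0.14 in TE5 shTP63 and 0.17 in TE5 shCCAT1. Values near 0 turned sign with the scaling: PERP in TE5 shTP63, DSG2 and PKP1 in KYSE140 shSOX2 with TPM, DSG3 in TE5 shCCAT1 (0.13 without TMM, 0.06 with TPM) and DSC2 there with DESeq2 size factors (-0.01). Against shSOX2 of the same lane, shTP63 had 1 member lower in TE5 and 3 in KYSE140. DESeq2 called 4 members upon TP63 silencing and 2 upon SOX2 silencing where edgeR called 0. Leaving out each library in turn gave 0 calls each time (0 to 0), with the lowest adjusted p of any member between 0.208 and 1. Each line has 1 library per condition, so the line is the only pairing. The edgeR fit with no replicate block for the line called 0 members as well, with every adjusted p at 1. Of the single values, 6 gained a call, all by DESeq2, and 102 moved by more than their error.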
